A study of Mus musculus with 12 samples.

Results

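The genes described here are 8 genes of the small MAF and NRF2 network, *Maff*, *Mafk*, *Mafg*, *Nfe2l2* (which encodes NRF2), *Bach1*, *Atf3*, *Hmox1* and *Nqo1*. They were selected by gene symbol from the 56980 genes of a bulk RNA-Seq count matrix, and all 8 were among the 17691 genes with enough counts to be tested. The symbols were chosen with earlier results of these libraries known, and no threshold on any value was recorded, so the values below are a description and an adjusted p only places a gene among all genes tested.

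The libraries came from W-20 (W-20-17) cells, a murine bone marrow stromal cell (BMSC) line. WT cells are the unmodified line, and Y428F cells are a stable line that carries Flag-tagged YAP in which a tyrosine is replaced by phenylalanine. Each line was exposed for 2 hours to 50 nM parathyroid hormone (PTH) or to vehicle (PBS), which gave 4 groups of 3 libraries. The comparisons ask how these genes responded to PTH in each line, whether the lines differed, and whether the response itself differed.

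Some limits belong to the model. The library titles name the lines, whereas the genotype entry of the Y428F libraries reads WT. The study's account of the RNA-Seq uses the names YAP S381A/Y428F and Y428F for the mutant cells, mostly the former, while the titles give Y428F alone. In the double mutant the S381A change, from serine to alanine, would be part of every difference between the lines. The clones were selected with puromycin and no library of cells with introduced wild-type YAP was analysed here, so the mutation, the introduced YAP, the selection and the clone cannot be told apart. The labels do not say whether replicates were separate cultures, so the p-values measure the spread between these libraries. Library totals lay between 17127897 and 19057319 counts. The marrow stromal collagen gene *Col1a2* was the most abundant stromal marker in all 4 groups, and the stromal marker *Thy1* had no count in any library.

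Small MAF proteins (MAFF, MAFG and MAFK) are short basic leucine zipper (bZIP) factors without a transactivation domain, and they bind DNA in pairs. Paired with NRF2 they activate genes with antioxidant response elements, and paired with BACH1, a heme-sensing repressor, they hold such genes down, *Hmox1* foremost. ATF3 is a stress-induced bZIP factor of the cAMP response element family, and *Hmox1* (heme oxygenase, which breaks down heme) and *Nqo1* (a quinone reductase) are standard readouts of NRF2 activity. NRF2 itself is set mainly by protein degradation through KEAP1, so its RNA level is not its activity. RNA was measured here and protein was not.

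The 250 bases upstream of the canonical transcript start (GRCm39, GENCODE vM39) are shown for the 3 small MAF genes, since their PTH responses are the main result. Capitals mark matches to 4 motifs searched on both strands, the full cAMP response element TGACGTCA, its half-site TGACG (which lies within the full element), the antioxidant response element core TGACNNNGC and the AP-1 site TGANTCA. *Maff* lies on chr15:79231470-79231719 (plus strand), *Mafk* on chr5:139777014-139777263 (plus strand) and *Mafg* on chr11:120524375-120524624 (minus strand). The *Maff* and *Mafk* windows lie inside the annotated span of the gene, since another transcript starts farther upstream. The *Mafg* window lies partly inside the span of its gene, and the *Atf3* window, searched but not shown, lies wholly inside.
Maff: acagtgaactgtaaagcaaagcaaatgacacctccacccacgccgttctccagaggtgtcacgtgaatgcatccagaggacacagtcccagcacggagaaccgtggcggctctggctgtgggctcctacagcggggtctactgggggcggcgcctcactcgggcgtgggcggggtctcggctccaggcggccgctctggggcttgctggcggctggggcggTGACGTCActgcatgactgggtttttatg
Mafk: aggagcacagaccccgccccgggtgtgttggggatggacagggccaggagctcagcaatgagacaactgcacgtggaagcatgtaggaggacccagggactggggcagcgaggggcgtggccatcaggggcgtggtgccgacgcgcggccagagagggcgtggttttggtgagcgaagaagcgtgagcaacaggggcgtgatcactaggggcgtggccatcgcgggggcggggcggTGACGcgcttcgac
Mafg: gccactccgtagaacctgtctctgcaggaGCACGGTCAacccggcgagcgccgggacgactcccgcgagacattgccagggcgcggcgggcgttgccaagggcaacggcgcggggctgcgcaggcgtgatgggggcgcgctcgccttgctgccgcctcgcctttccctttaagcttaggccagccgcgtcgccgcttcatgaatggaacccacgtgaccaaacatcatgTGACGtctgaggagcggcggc
The *Maff* window held a full cAMP response element 29 to 22 bases upstream of the start. The *Mafk* window held a half-site 14 to 10 bases upstream, and the *Mafg* window held a half-site 21 to 17 bases upstream and an antioxidant core 221 to 213 bases upstream. Among 13795 promoter windows of the same length, 2.04% held the full element, 22.5% a half-site, 10.5% an antioxidant core and 4.95% an AP-1 site. *Bach1* held a half-site 211 to 207 bases upstream, and the windows of *Nfe2l2*, *Atf3*, *Hmox1* and *Nqo1* held none of the 4 motifs. A match describes letters in the window, not a bound site or a cause.

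Expression is given in CPM, each gene's count scaled to the total count of its library after TMM adjustment. *Maff* was the gene of the 8 that moved most with PTH, 1.80-fold in WT cells and 3.02-fold in Y428F cells, and *Hmox1* rose to a like extent in both lines. *Mafk* and *Mafg* passed the test with PTH in Y428F cells and not in WT cells, and the difference in response between the lines passed for *Maff* and *Mafk* but not for *Mafg*. *Nqo1* was the gene that differed most between the lines and did not pass with PTH in either. Of the 8 genes, 2 rose and none fell with PTH in WT cells, where 7.42% of all genes tested rose and 6.01% fell. In Y428F cells 4 rose and none fell, where 6.61% of all genes rose and 5.78% fell. In both lines 0 of the 8 were lower at an unadjusted p under 0.05 in edgeR, and DESeq2 called 0 lower at an adjusted p under 0.05. The median log2 fold change of the 8 was 0.14 in WT cells and 0.28 in Y428F cells, beside -0.019 and -0.0067 over all genes.

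**Figure D1:**
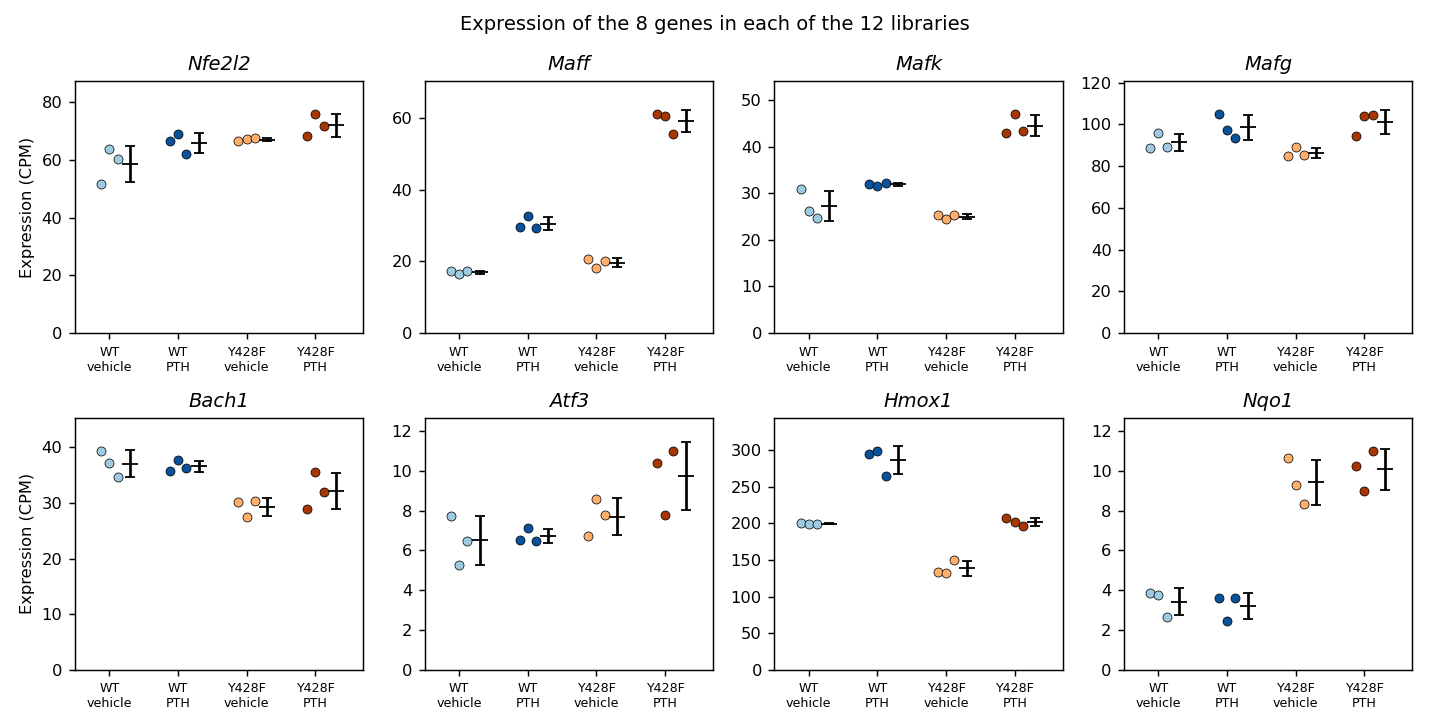
Expression of the 8 genes in CPM (vertical axes starting at 0) in the 12 libraries, with points for single libraries and bars for the mean and SD of each group of 3. The *Maff* points of the Y428F PTH group, 55.7 to 61.2 CPM, lie above all others, and the *Nqo1* points separate by line and not by treatment.

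*Maff* (ENSMUSG00000042622, chr15:79230821-79243276, plus strand) read 17.2, 16.5 and 17.2 CPM in the 3 WT vehicle libraries and 29.6, 32.7 and 29.4 CPM in the WT PTH libraries. It read 20.6, 18.2 and 19.99 CPM in the Y428F vehicle libraries and 61.2, 60.7 and 55.7 CPM in the Y428F PTH libraries. No PTH library overlapped a vehicle library, and every Y428F PTH library lay well above every WT PTH library. The rise with PTH was 0.85 on the log2 scale in WT cells (SE 0.080, adjusted p = 2.63e-07) and 1.60 in Y428F cells (SE 0.076, adjusted p = 3.31e-11). The response was larger in Y428F cells by 0.75 on the log2 scale (95% confidence interval 0.52 to 0.98, adjusted p = 0.00187). Leaving out any single library left this difference between 0.69 and 0.81.

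*Mafk* (ENSMUSG00000018143, chr5:139776804-139788408, plus strand) read 30.9, 26.2 and 24.7 CPM with vehicle and 32.0, 31.5 and 32.3 CPM with PTH in WT cells. In Y428F cells it read 25.2, 24.5 and 25.3 CPM with vehicle and 42.9, 47.0 and 43.4 CPM with PTH. The Y428F PTH libraries stood apart from the other 9, while in WT cells the PTH libraries lay just above the highest vehicle library. The rise in Y428F cells was 0.83 on the log2 scale (SE 0.080, adjusted p = 7.10e-07). In WT cells the log2 fold change was 0.23 (95% confidence interval 0.056 to 0.40, adjusted p = 0.0746), and it was 0.34 (adjusted p = 0.00547) without WT vehicle replicate 1, the highest of its group. The difference in response was 0.60 (95% confidence interval 0.36 to 0.84, adjusted p = 0.0199). That call was not firm: it was kept in 5 of the 12 fits with 1 library left out. It was lost without WT PTH replicate 1 or 2, Y428F vehicle replicate 1, 2 or 3, or Y428F PTH replicate 2 or 3. In those fits the adjusted p was 0.0511 to 0.0826 and the log2 difference 0.55 to 0.61.

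*Mafg* (ENSMUSG00000051510, chr11:120515942-120524530, minus strand) read 88.9, 96.1 and 89.3 CPM in WT vehicle libraries and 105.1, 97.3 and 93.5 CPM in WT PTH libraries. In Y428F cells it read 84.7, 89.2 and 85.2 CPM with vehicle and 94.6, 104.2 and 104.7 CPM with PTH. The treatments overlapped in WT cells and did not in Y428F cells, but the shift was small in both. It rose by 0.23 on the log2 scale in Y428F cells (SE 0.061, adjusted p = 0.0165), and this call was lost, at adjusted p of 0.0538 to 0.0701, without Y428F vehicle replicate 1 or 3 or Y428F PTH replicate 2 or 3. In WT cells the log2 fold change was 0.11 (95% confidence interval -0.019 to 0.24, adjusted p = 0.287), and the difference in response was 0.12 (95% confidence interval -0.061 to 0.30, adjusted p = 0.857).

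Across all 17691 genes, 0.170% had a larger and 0.243% a smaller log2 response in Y428F cells past the threshold, and of the 8 genes 2 were larger (*Maff* and *Mafk*) and none smaller, also 0 at an unadjusted p under 0.05 in edgeR and 0 at an adjusted p under 0.05 in DESeq2. The median difference of the 8 was 0.16, beside 0.0017 over all genes. For *Hmox1* the interval of the difference was narrow (0.018, 95% confidence interval -0.16 to 0.20), and for *Atf3* and *Nqo1* it was wide (0.29, -0.16 to 0.75, and 0.18, -0.33 to 0.68).

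**Figure D2:**
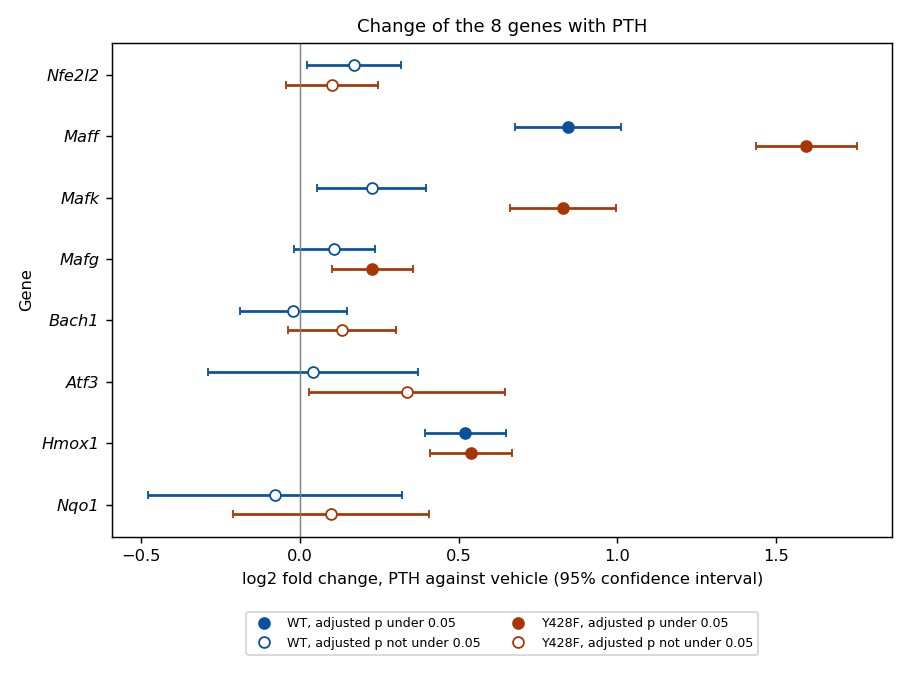
Log2 fold change with PTH against vehicle (horizontal axis) of each gene, with 95% confidence intervals, in WT (blue) and Y428F cells (red). Filled points had an adjusted p under 0.05. The intervals of *Maff* and *Mafk* in the 2 lines do not meet, and those of *Hmox1* nearly coincide.

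To compare genes with each other, CPM were divided by the length in kb of all annotated exons of each gene together. These lengths were 3185 bases for *Maff*, 5623 for *Mafk* and 8508 for *Mafg*. Which transcripts the cells express was not measured, so an order between genes depends on these annotated lengths. In WT vehicle cells the order of these levels was *Hmox1* (113 CPM per kb), *Mafg* and *Nfe2l2* (both 10.7), *Maff* (5.33), *Bach1* (5.09), *Mafk* (4.85), *Atf3* (2.66) and *Nqo1* (1.24). The libraries of *Mafg* and *Nfe2l2* overlapped, and so did those of *Maff*, *Bach1* and *Mafk*. In Y428F PTH cells *Maff* stood second at 18.6 CPM per kb, and *Bach1* (4.41), *Atf3* (3.99) and *Nqo1* (3.67) overlapped at the low end. With vehicle *Mafg* was the most abundant of the family in both lines, 10.7 ± 0.477 CPM per kb in WT and 10.2 ± 0.292 in Y428F cells (SD, n = 3). *Maff* and *Mafk* followed at 5.33 ± 0.134 and 4.85 ± 0.580 CPM per kb in WT vehicle cells, and their libraries were within the spread of each other. With PTH the order per kb changed in Y428F cells, where *Maff* reached 18.6 ± 0.953 CPM per kb, above *Mafg* at 11.9 ± 0.668 and *Mafk* at 7.91 ± 0.400. In CPM not divided by length, *Mafg* (101) stayed above *Maff* (59.2) in these cells, so the change of order rests on the lengths. In WT PTH cells *Maff* reached 9.59 ± 0.574 CPM per kb, below *Mafg* at 11.6 ± 0.695.

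The summed level of the 3 small MAF genes differed between the lines by less than the spread with vehicle, 20.9 ± 0.559 CPM per kb in WT and 20.8 ± 0.175 in Y428F cells. With PTH it was 26.9 ± 0.783 CPM per kb in WT cells and 38.4 ± 1.14 in Y428F cells. The share of *Maff* in this sum was 25.5% ± 1.08 and 35.7% ± 1.80 in WT cells with vehicle and PTH, and 29.6% ± 1.64 and 48.4% ± 2.02 in Y428F cells. The share of *Mafg* was 51.4% ± 2.30 and 43.1% ± 1.79 in WT cells, and 48.9% ± 1.82 and 31.0% ± 1.76 in Y428F cells. The library ranges of the *Maff* share with vehicle and PTH did not overlap in either line. The sums and the size of each share depend on the annotated exon lengths.

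The activator and the repressor that pair with small MAF proteins did not pass the test with PTH. *Nfe2l2* (ENSMUSG00000015839, chr2:75504739-75534985, minus strand) read 51.7, 63.6 and 60.4 CPM in WT vehicle libraries and 66.6, 68.8 and 62.1 CPM in WT PTH libraries. It read 66.6, 67.1 and 67.4 CPM in Y428F vehicle libraries and 68.2, 75.9 and 71.6 CPM in Y428F PTH libraries. The values overlapped by treatment in WT cells, where the vehicle replicates were widely spread. The log2 fold change with PTH was 0.17 in WT cells (95% confidence interval 0.022 to 0.32, adjusted p = 0.132) and 0.10 in Y428F cells (95% confidence interval -0.044 to 0.25, adjusted p = 0.417). Without WT vehicle replicate 2 the WT value was 0.24 (adjusted p = 0.0476).

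*Bach1* (ENSMUSG00000025612, chr16:87495782-87530234, plus strand) read 39.4, 37.1 and 34.6 CPM with vehicle and 35.7, 37.7 and 36.2 CPM with PTH in WT cells. In Y428F cells it read 30.2, 27.4 and 30.3 CPM with vehicle and 29.0, 35.5 and 31.9 CPM with PTH. The treatments overlapped in both lines, and the Y428F vehicle libraries all lay below the WT vehicle libraries. The log2 fold change with PTH was -0.020 in WT cells (95% confidence interval -0.19 to 0.15) and 0.13 in Y428F cells (95% confidence interval -0.038 to 0.30), with adjusted p of 0.927 and 0.354.

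*Atf3* (ENSMUSG00000026628, chr1:190902493-190950241, minus strand) was low in all libraries, at 93 to 200 counts each. It read 7.72, 5.29 and 6.49 CPM with vehicle and 6.54, 7.14 and 6.46 CPM with PTH in WT cells. In Y428F cells it read 6.74, 8.59 and 7.75 CPM with vehicle and 10.4, 7.80 and 11.0 CPM with PTH. In WT cells the PTH values lay within the range of the vehicle values, and in Y428F cells the treatments overlapped through PTH replicate 2. The log2 fold change with PTH was 0.043 in WT cells (95% confidence interval -0.29 to 0.37, adjusted p = 0.917) and 0.34 in Y428F cells (95% confidence interval 0.028 to 0.65, adjusted p = 0.159). Without Y428F PTH replicate 2, the lowest of its group, the Y428F value was 0.47 (adjusted p = 0.0475).

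*Hmox1* (ENSMUSG00000005413, chr8:75820241-75827217, plus strand) was by far the most abundant of the 8 per kb of exon, at 113 ± 0.467 CPM per kb in WT vehicle cells. It read 200.2, 199 and 199 CPM with vehicle and 295, 299 and 264 CPM with PTH in WT cells. In Y428F cells it read 134, 132 and 150.4 CPM with vehicle and 207, 201 and 196 CPM with PTH. No group overlapped its treatment partner, and the Y428F PTH libraries lay around the level of WT cells with vehicle. It rose by 0.52 on the log2 scale in WT cells (SE 0.061, adjusted p = 4.97e-06) and by 0.54 in Y428F cells (SE 0.061, adjusted p = 5.39e-06), a 1.44-fold and a 1.45-fold rise.

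*Nqo1* (ENSMUSG00000003849, chr8:108113835-108129934, minus strand) was scarce in WT cells, at 40 to 73 counts a library. It read 3.86, 3.75 and 2.63 CPM with vehicle and 3.60, 2.46 and 3.61 CPM with PTH in WT cells. In Y428F cells it read 10.6, 9.30 and 8.35 CPM with vehicle and 10.3, 8.98 and 11.0 CPM with PTH. All 6 Y428F libraries lay above all 6 WT libraries, and the treatments overlapped within each line. The log2 fold change with PTH was -0.079 in WT cells (95% confidence interval -0.48 to 0.32, adjusted p = 0.864) and 0.098 in Y428F cells (95% confidence interval -0.21 to 0.41, adjusted p = 0.765). *Hmox1* thus passed the PTH test in both lines and *Nqo1* in neither.

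With vehicle, the lines differed in *Nqo1*, *Hmox1* and *Bach1*, and by a small margin in *Nfe2l2* and *Maff*. *Nqo1* was 2.76-fold higher in Y428F cells (log2 1.46, SE 0.166, adjusted p = 3.07e-07). *Hmox1* fell to 0.696 of its WT level (log2 -0.52, SE 0.061, adjusted p = 4.81e-07) and *Bach1* to 0.790 (log2 -0.34, SE 0.081, adjusted p = 0.00166). In all, 3 of the 8 were higher and 2 lower in Y428F cells, where 22.4% of all genes tested were higher and 22.7% lower. The median of the 8 was 0.057 on the log2 scale, beside 0.012 over all genes.

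The calls of *Nfe2l2* and *Maff* between the vehicle groups were not firm. *Nfe2l2* was higher by 0.20 on the log2 scale (SE 0.070, adjusted p = 0.0285). Without WT vehicle replicate 1, the lowest library, it was 0.11 (adjusted p = 0.173), and without Y428F vehicle replicate 1, 2 or 3 the adjusted p was 0.0618, 0.0634 and 0.0718. *Maff* was also higher by 0.20 (SE 0.082, adjusted p = 0.0478), and 9 of the 12 left-out libraries ended that call, at adjusted p up to 0.176 without Y428F vehicle replicate 1. The call was kept only without WT PTH replicate 2 or 3 or Y428F vehicle replicate 2. It was also lost with DESeq2, without the filter on low counts and with the replicate number as a block. *Mafk* (log2 -0.13, 95% confidence interval -0.30 to 0.046), *Mafg* (log2 -0.082, -0.21 to 0.046) and *Atf3* (log2 0.24, -0.080 to 0.56) did not pass, with adjusted p of 0.234, 0.302 and 0.220.

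With PTH, 4 of the 8 genes were higher in Y428F than in WT cells and 1 was lower, where 22.8% of all genes were higher and 23.0% lower. *Maff* was 1.94-fold higher (log2 0.95, SE 0.074, adjusted p = 1.13e-09) and *Mafk* 1.39-fold higher (log2 0.48, SE 0.079, adjusted p = 4.03e-05). *Nqo1* was 3.12-fold higher (log2 1.64, SE 0.170, adjusted p = 8.01e-08) and *Atf3* 1.45-fold higher (log2 0.54, SE 0.152, adjusted p = 0.00638). *Hmox1* remained lower, at 0.704 of its WT level (log2 -0.51, SE 0.061, adjusted p = 6.41e-07). *Bach1* had a log2 difference of -0.19 (95% confidence interval -0.36 to -0.017, adjusted p = 0.0676), which passed without WT vehicle replicate 1 (-0.20, adjusted p = 0.0434) or Y428F PTH replicate 2 (-0.28, adjusted p = 0.0130). *Nfe2l2* (log2 0.13, adjusted p = 0.150) and *Mafg* (log2 0.037, adjusted p = 0.657) did not pass. These comparisons use the same 12 libraries as the PTH responses and are not separate evidence.

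Cell type markers moved with the line as well. All 7 tested marrow stromal markers were lower in Y428F vehicle cells, where 22.4% of all genes were higher and 22.7% lower (the shares beside which the marker counts here stand), and the median summed level of the 8 on the list was 21441 CPM in WT and 13637 CPM in Y428F vehicle libraries, with *Col1a2* the most abundant. The 7 macrophage markers summed to a median of 7.83 and 17.4 CPM, 3 of 6 tested were higher, *Cd14* was the most abundant and *Adgre1* was at 0 counts in the Y428F group. The 5 endothelial markers summed to 1.59 and 8.85 CPM, and of 4 tested *Cdh5*, the most abundant, was higher, with *Emcn* at 0. The erythroid marker *Hba-a1* (alpha globin), of interest beside heme genes, averaged 1.06 and 4.25 CPM and was higher (log2 2.00, adjusted p = 2.01e-06), with the beta globin gene *Hbb-bt* at 0. The 5 osteoblast markers had sums of 758 and 492 CPM, with 1 of 3 tested lower. These sums were nearly all *Spp1*, which averaged 768 and 489 CPM. *Sp7* averaged 0.11 and 0.072 CPM and *Alpl* 0.26 and 0.051 CPM. *Ibsp* was at 0 and 0.018 CPM and *Bglap* had no count, so the sums describe *Spp1* and not osteoblast markers as a set. The 5 adipocyte markers had sums of 105 and 56.8 CPM, with *Adipoq* at 0, *Pparg* higher and 2 of 4 tested lower. Their part in the differences between the lines was not tested, and in bulk RNA fewer cells of a type and less RNA per cell cannot be told apart.

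The sums kept their order between the lines in the PTH groups. The macrophage markers summed to a median of 7.05 CPM in WT PTH and 20.6 CPM in Y428F PTH libraries, and the endothelial markers to 1.05 and 6.49 CPM, while *Hba-a1* averaged 1.147 and 4.67 CPM. The stromal markers summed to 21407 and 12064 CPM, the osteoblast markers (nearly all *Spp1*) to 717 and 503 CPM and the adipocyte markers to 109.7 and 83.5 CPM. With PTH against vehicle, 1 of 4 tested adipocyte markers, *Pparg*, rose in each line and none fell (beside 7.42% and 6.61% of all genes rising), while *Cebpa* averaged 46.1 and 41.0 CPM and *Fabp4* 26.9 and 25.2 CPM in WT vehicle and PTH libraries. Of 7 stromal markers 3 fell in WT cells and 2 in Y428F cells, beside 6.01% and 5.78% of all genes. Their part in the PTH results was not tested.

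Among 25 tested NRF2 target enzymes and transporters other than *Hmox1* and *Nqo1*, 17 were higher and 3 lower in the Y428F line with vehicle, beside 22.4% and 22.7% of all genes, with a median log2 difference of 0.41. *Txnrd1* (thioredoxin reductase) went from 109 ± 5.29 to 201 ± 11.2 CPM (log2 0.87, adjusted p = 3.21e-10). *Abcc4* (an efflux transporter) went from 25.9 ± 0.781 to 47.4 ± 1.72 CPM (log2 0.87, adjusted p = 1.75e-09), *Prdx6* (a peroxiredoxin) from 79.3 ± 4.41 to 138.6 ± 10.1 CPM (log2 0.81, adjusted p = 1.28e-09) and *Gsr* (glutathione reductase) from 55.2 ± 3.93 to 83.6 ± 2.04 CPM (log2 0.60, adjusted p = 6.16e-07). The libraries of the lines did not overlap for any of these 4. *Gsta4*, 1 of the 17, had 0 counts in every WT vehicle library and 3 to 8 in the Y428F vehicle libraries. The genes that fell were *Aox1*, *Mgst1* and *Ephx1*, by 0.53, 0.37 and 0.34 on the log2 scale, and *Aox1* had an adjusted p of 0.0590 without WT vehicle replicate 2. Most tested members of this list thus stood on the side of *Nqo1*, while *Hmox1* stood on the other. With PTH 15 were higher and 3 lower, beside 22.8% and 23.0% (median 0.36), among them *Prdx6* by 0.98, *Txnrd1* by 0.87, *Abcc4* by 0.83 and *Gclc* (the catalytic subunit of glutamate-cysteine ligase) by 0.71 on the log2 scale.

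**Figure D3:**
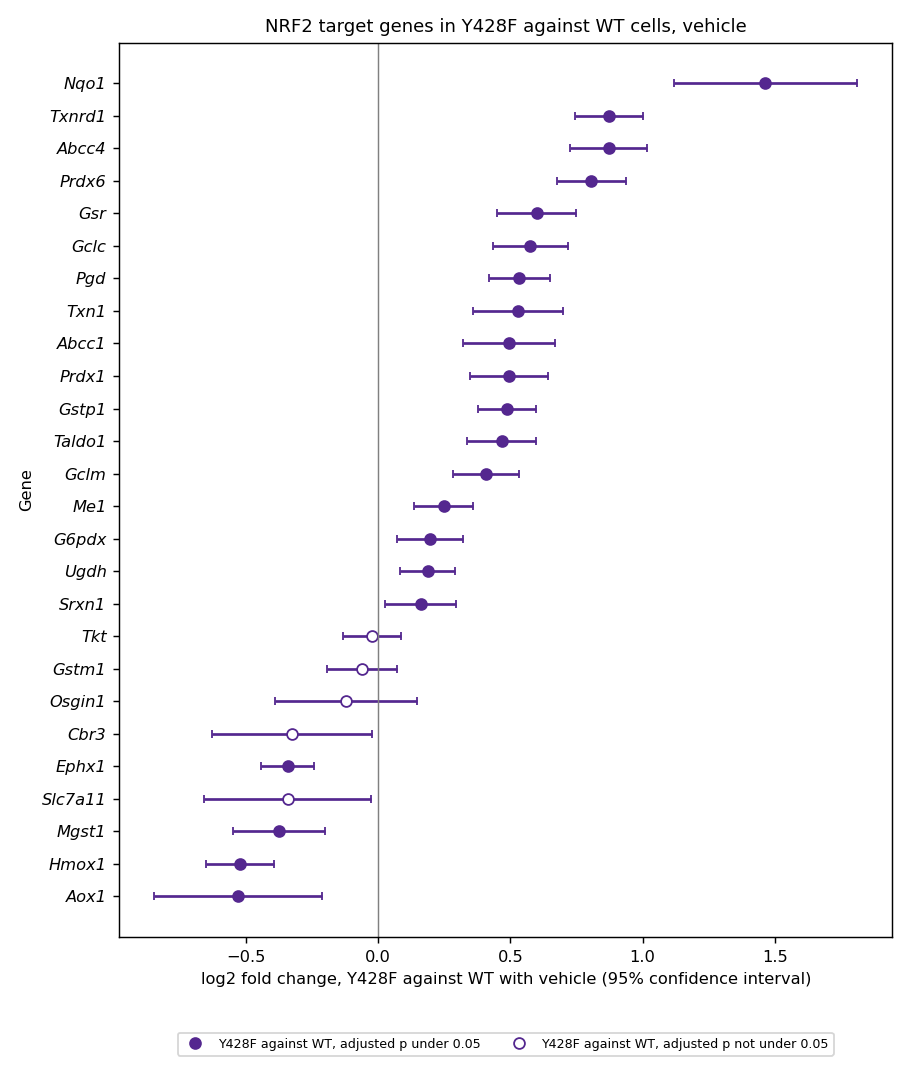
Log2 fold change of Y428F against WT cells with vehicle (horizontal axis) for NRF2 target genes averaging 2 CPM or more, *Hmox1* and *Nqo1* included, with 95% confidence intervals. Filled points had an adjusted p under 0.05. Most genes lie to the right of 0, *Nqo1* farthest at 1.46, and *Hmox1* lies to the left at -0.52.

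With PTH against vehicle in WT cells 6 of the 25 rose and 2 fell, beside 7.42% and 6.01% of all genes, with a median log2 fold change of 0.035. The count of 8 was 4 without WT vehicle replicate 2 and 5 without WT vehicle replicate 3 or WT PTH replicate 1. *Slc7a11* (the cystine transporter subunit) rose from 16.2 ± 4.12 to 23.7 ± 3.96 CPM (log2 0.55, adjusted p = 0.0152), though its libraries overlapped, and *Gsr* rose by 0.32 (adjusted p = 0.00448). *Aox1* fell by 0.63 on the log2 scale (adjusted p = 0.00924) and *Osgin1* fell by 0.44 (adjusted p = 0.0338), both at under 10 CPM. Without WT vehicle replicate 2 all of *Slc7a11*, *Aox1* and *Osgin1* lost their call, as *Slc7a11* and *Osgin1* did without WT vehicle replicate 3 or WT PTH replicate 1 and *Slc7a11* without WT PTH replicate 2 (adjusted p up to 0.0920, 0.0712 and 0.182). In Y428F cells 4 rose and none fell, beside 6.61% and 5.78% of all genes (1 lower at an unadjusted p under 0.05 in edgeR, 0 at an adjusted p under 0.05 in DESeq2). All 4 were also among the 6 of WT cells. They were *Slc7a11* by 0.71 (adjusted p = 0.00283), *Txnrd1* by 0.28 (adjusted p = 0.00422), *Gclm* (the modifier subunit of glutamate-cysteine ligase) by 0.25 (adjusted p = 0.00685) and *Me1* (malic enzyme) by 0.17 (adjusted p = 0.0426). The call of *Me1* was lost without Y428F vehicle replicate 1 or 2 or any Y428F PTH library (adjusted p up to 0.174), and the count of 4 lay between 3 and 6 as single libraries were left out. In WT cells *Txnrd1* rose by 0.28 (adjusted p = 0.00467), *Gclm* by 0.30 (adjusted p = 0.00182) and *Me1* by 0.25 (adjusted p = 0.00285). For the difference in response none of the 25 passed in edgeR or DESeq2, beside 0.170% of all genes larger and 0.243% smaller in edgeR. Of the 25, 1 had an unadjusted p under 0.05 in edgeR.

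The genes that control NRF2, and the relatives of NRF2 and the small MAF factors, numbered 15, of which 12 were tested. With vehicle 1 was higher and 3 lower in Y428F cells, beside 22.4% and 22.7% of all genes. *Maf* (c-MAF, a large MAF factor with a transactivation domain) fell from 405 ± 59.6 to 162 ± 7.39 CPM (log2 -1.33, adjusted p = 2.08e-11). *Keap1* (the adaptor that targets NRF2 for degradation) fell from 126 ± 10.3 to 91.2 ± 5.09 CPM (log2 -0.47, adjusted p = 1.05e-05), *Nfe2l1* (NRF1) fell by 0.29 on the log2 scale (adjusted p = 0.000461) and *Dpp3* (a KEAP1-binding peptidase) rose by 0.36 (adjusted p = 3.08e-05). With PTH 5 were higher and 3 lower, beside 22.8% and 23.0%, with *Maf* lower by -1.08 and *Bach2* (a BACH1 relative), at 1.50 ± 0.829 and 3.08 ± 0.501 CPM, higher by 1.04 (adjusted p = 0.00967, and 0.0518 without WT PTH replicate 1).

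With PTH against vehicle 1 of the 12 rose in WT cells and 2 rose in Y428F cells, beside 7.42% and 6.61% of all genes. *Cul3* (the ligase scaffold that works with KEAP1) rose in both lines, from 80.8 ± 2.07 to 93.6 ± 5.28 CPM in WT cells (log2 0.21, adjusted p = 0.0187) and from 86.8 ± 1.23 to 107.6 ± 6.01 CPM in Y428F cells (log2 0.31, adjusted p = 0.00111). *Sqstm1* (p62, which binds KEAP1) rose in Y428F cells by 0.20 (adjusted p = 0.0419). The WT count was 0 without WT vehicle replicate 2 or 3 or WT PTH replicate 1 and 2 without WT vehicle replicate 1 or WT PTH replicate 3, and in Y428F cells it was 1 without any single Y428F library. None of the 12 passed for the difference in response in edgeR or DESeq2, beside 0.170% of all genes larger and 0.243% smaller in edgeR. Of the 12, 2 had an unadjusted p under 0.05 in edgeR. Without WT vehicle replicate 1 the difference of *Maf* passed (log2 0.35, adjusted p = 0.0361), where it was 0.24 (adjusted p = 0.669) with all libraries.

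Beside *Hmox1*, 16 heme and iron genes were tested. With vehicle 6 were higher and 3 lower in Y428F cells, beside 22.4% and 22.7% of all genes. *Tfrc* (the transferrin receptor) was the largest, at 39.7 ± 6.05 and 160.1 ± 5.66 CPM (log2 2.01, adjusted p = 5.47e-14), and *Cpox* (coproporphyrinogen oxidase of heme synthesis) went from 74.4 ± 4.66 to 136.9 ± 4.29 CPM (log2 0.88, adjusted p = 8.01e-11). *Urod* (another heme synthesis enzyme) fell by 0.51 on the log2 scale, and *Hmox2* (the constitutive heme oxygenase) rose by 0.39. With PTH 8 were higher and 2 lower, beside 22.8% and 23.0%, *Tfrc* by 1.90 and *Cpox* by 1.06 among the higher and *Ppox* by -0.49 among the lower. With PTH against vehicle 1 of the 16 rose in each line, beside 7.42% of all genes in WT and 6.61% in Y428F cells, *Tfrc* in WT cells (log2 0.34, adjusted p = 0.00910) and *Cpox* in Y428F cells (log2 0.26, adjusted p = 0.00342). The WT count was 0 without WT vehicle replicate 3 or WT PTH replicate 1 and 2 without WT PTH replicate 3. *Tfrc* in Y428F cells had a log2 fold change of 0.23 (SE 0.075, adjusted p = 0.0527), and it passed in DESeq2, without the filter on low counts, with 10 counts required in every library, with the replicate block, in the 2-group fit, and without any of the WT PTH libraries or WT vehicle replicate 1 or 3, at adjusted p down to 0.00385. The Y428F count was also 2 without Y428F PTH replicate 3. None of the 16 passed for the difference in response in edgeR or DESeq2, beside 0.170% of all genes larger and 0.243% smaller in edgeR. Of the 16, 1 had an unadjusted p under 0.05 in edgeR.

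ATF3 pairs with other bZIP factors, and 18 of these were tested. With PTH 4 rose and 5 fell in WT cells (5 in all without WT vehicle replicate 3), beside 7.42% and 6.01% of all genes. In Y428F cells 4 rose and 2 fell, beside 6.61% and 5.78%, and in DESeq2 4 rose and 5 fell. *Fosl1* (FRA1, an AP-1 subunit) rose in both, from 13.1 ± 3.41 to 22.3 ± 4.78 CPM in WT cells (log2 0.77, adjusted p = 0.00177) and from 14.4 ± 1.22 to 28.6 ± 1.55 CPM in Y428F cells (log2 0.99, adjusted p = 0.000140). *Fosb* rose in WT cells from 1.83 ± 0.157 to 3.36 ± 1.24 CPM (log2 0.87, adjusted p = 0.0372), a call lost without WT vehicle replicate 2 or 3 or WT PTH replicate 1 or 2 (adjusted p up to 0.251). *Atf4* (the integrated stress response factor, which acts upstream of *Atf3*) fell in WT cells from 371 ± 39.3 to 246 ± 13.9 CPM (log2 -0.59, adjusted p = 6.16e-06), and *Ddit3* (CHOP) fell by 0.52 on the log2 scale (adjusted p = 0.000279). *Jun* fell in both lines, by 0.35 in WT and 0.38 in Y428F cells, as did *Jdp2* (a repressor close to ATF3), by 0.36 and 0.26. The Y428F call of *Jdp2* was lost without Y428F vehicle replicate 1 or 3 or Y428F PTH replicate 3 (adjusted p up to 0.112).

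For the difference in response 1 of the 18 bZIP partners, *Junb*, passed in edgeR and 2 in DESeq2, beside 0.170% of all genes larger and 0.243% smaller in Y428F cells in edgeR. In WT cells it spanned 60.3 to 82.6 CPM with vehicle and 60.7 to 73.4 CPM with PTH, and in Y428F cells 58.6 to 65.2 CPM with vehicle and 86.5 to 96.5 CPM with PTH. The treatments overlapped in WT cells and were separate in Y428F cells. The log2 fold change was -0.13 in WT cells (95% confidence interval -0.33 to 0.062, adjusted p = 0.422) and 0.55 in Y428F cells (SE 0.093, adjusted p = 0.000399). The difference was 0.69 (SE 0.132, adjusted p = 0.0215). It missed the threshold, at adjusted p of 0.0545 to 0.0794, without WT vehicle replicate 2 or 3, WT PTH replicate 1, Y428F vehicle replicate 2 or 3 or Y428F PTH replicate 3. *Atf4* had a log2 fold change with PTH of -0.21 in Y428F cells (95% confidence interval -0.35 to -0.061, adjusted p = 0.0590), above its WT value by 0.39 (95% confidence interval 0.18 to 0.59, adjusted p = 0.128). That difference passed in DESeq2 and without the filter on low counts, where its adjusted p was lowest at 0.00191.

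**Figure D4:**
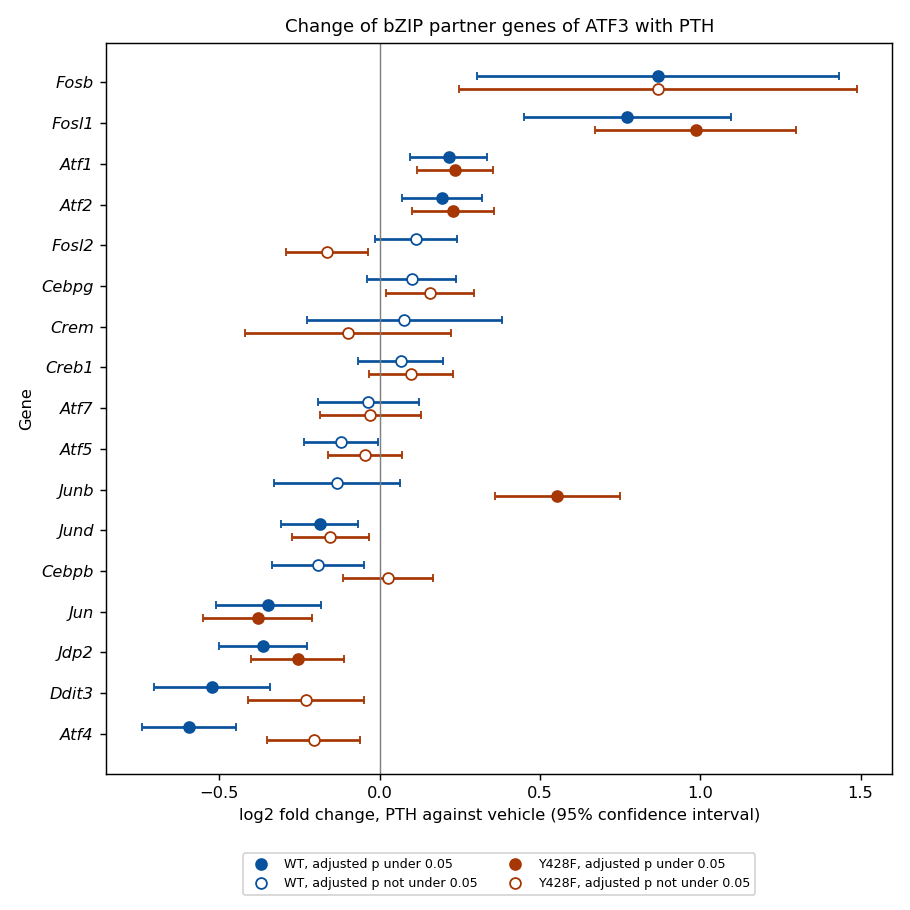
Log2 fold change with PTH against vehicle (horizontal axis) of the bZIP partner genes of ATF3 averaging 2 CPM or more, with 95% confidence intervals, in WT (blue) and Y428F cells (red). Filled points had an adjusted p under 0.05. *Fosl1* lies to the right in both lines, *Junb* lies at 0.55 in Y428F and -0.13 in WT cells, and *Atf4* lies farthest to the left in WT cells at -0.59.

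Between the lines with vehicle, 3 bZIP partners were higher and 8 lower in Y428F cells, beside 22.4% and 22.7% of all genes, with a median log2 difference of -0.24 where that of all genes was 0.012. *Jdp2* fell from 89.8 ± 5.44 to 51.3 ± 2.37 CPM (log2 -0.81, adjusted p = 3.05e-09), *Jund* from 709 ± 23.3 to 433 ± 27.0 CPM (log2 -0.71, adjusted p = 2.50e-09) and *Jun* by 0.49 on the log2 scale. *Atf4* was higher in Y428F cells, by 0.46 with vehicle (adjusted p = 1.50e-05) and by 0.84 with PTH (adjusted p = 3.49e-09). With PTH 6 were higher and 6 lower, beside 22.8% and 23.0% of all genes, and *Atf3* itself was among the higher genes of this comparison.

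The genes whose log2 CPM followed each member most closely over the 12 libraries are given as a description, with Pearson's r over libraries that share their groups and depth, among 11217 genes averaging 2 CPM or more. *Maff* was followed by *Eps8* (r = 0.982), *Slf2* (0.975) and *Itprip* (0.970), and *Mafk* by *Wsb1* (0.950), *Pik3c2a* (0.945) and *Slf2* (0.944). *Mafg* was followed most closely by *Zzz3* (0.938), *Nfe2l2* by *Git1* (0.964), *Bach1* by *P3h2* (0.932) and *Atf3* by *Slc25a14* (0.941). *Hmox1* was followed by *Fam13b* (0.986), *Nr4a1* (0.984) and *Rragc* (0.983). *Nqo1* was followed by *Cyp3a13* (0.987), *Tspan32* (0.986) and *Cenpl* (0.982). *Slf2* was among the 3 closest genes of both *Maff* and *Mafk*.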

How the data were processed

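Poly-A RNA-Seq of 12 libraries was analysed. Per the labels and the study's methods, the authors mapped reads with STAR 2.7.10b to GRCm39 (GENCODE vM31 basic) and deposited RSEM expected counts, which were not scaled for library size. Whether the library kit kept strand is not given in the sources used here, so reads of overlapping antisense genes cannot be told apart. Groups came from the library titles. Replicates differed by more than sampling noise (chi-square per degree of freedom 2.94 to 15.2). Gene identifiers were matched to GENCODE vM39 (56236 of 56980).

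Expected counts were rounded and fitted in edgeR 4.0.16 (R 4.3.3) with TMM scaling, in 1 model of 12 libraries, for the 17691 genes with at least 10 counts in total. Each adjusted p is from its quasi-likelihood test, adjusted over these genes by the Benjamini-Hochberg method, and a gene was called when it was under 0.05, with no limit on fold. CPM used TMM-scaled totals. Promoter windows were read from the GRCm39 sequence, and no protein sequence was used here.

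The 8 genes, the 4 pathway lists and the 6 marker lists together held 118 symbols, all matched. They and the tests were chosen with earlier results of these data known. Named list genes were, per list and comparison, up to 4 called genes of at least 2 CPM with the largest change. *Aox1*, *Mgst1*, *Ephx1* and *Gsta4* between the vehicle groups, the markers *Cebpa* and *Fabp4*, the WT values of *Txnrd1*, *Gclm*, *Me1*, *Jun* and *Jdp2* with PTH, and *Atf4* and *Tfrc* with PTH in Y428F cells and *Maf* and *Atf4* in the difference were named after their values were seen. The summed erythroid list is not reported here. Alternatives were DESeq2 1.42.0, its size factors, library totals, other filters, a replicate block, 2-group fits, a threshold of 0.01 and each library left out. Same-numbered replicates did not deviate together (r -0.031 to 0.037), so numbers were not taken as pairs.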

Additional observations from a re-analysis of the deposited data

Results flagged for a closer look

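Of the 8 genes and the genes of the 4 pathway lists, 3 differed between the lines in their response to PTH, by the test of the difference itself, which 0.170% of all genes passed as larger and 0.243% as smaller in Y428F cells. The log2 response of *Maff* was larger in Y428F than in WT cells by 0.75 (SE 0.110), with no PTH library of either line overlapping a vehicle library. That of *Mafk* was larger by 0.60 (SE 0.114), with the 3 Y428F PTH libraries above the other 9. That of *Junb* was larger by 0.69 (SE 0.132). The adjusted p over all genes (edgeR quasi-likelihood test) was 0.00187 for *Maff*, 0.0199 for *Mafk* and 0.0215 for *Junb*, and over the alternatives it reached 0.0125, 0.0826 and 0.0794. Groups of 3 libraries were too small to look for single outlying libraries.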

How the results depend on the processing

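The number of the 8 genes called was 2 (PTH in WT cells), 4 (PTH in Y428F cells), 5 (lines with vehicle), 5 (lines with PTH) and 2 (difference in response). Leaving out each library gave 2 to 3, 3 to 4, 3 to 5, 5 to 6 and 1 to 2. A threshold of 0.01 gave 3 for the lines with vehicle and 1 for the difference. All 5 counts moved by less than 1.5 times with DESeq2, its size factors, library totals, other filters, 2-group fits and the replicate block. With the replicate number as a block the counts were 2, 4, 4, 5 and 2, since *Maff* between the vehicle groups (0.20) lost its call, and no other call of the 8 genes changed.

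Signs turned only for values near 0. *Atf3* with PTH in WT cells was -0.00898 with library totals and -0.075 to 0.20 with single libraries left out. Left-out libraries also gave -0.064 to 0.038 for *Bach1* and -0.23 to 0.080 for *Nqo1* with PTH in WT cells, -3.19e-05 to 0.094 for *Mafg* between lines with PTH, and -0.14 to 0.0047 for *Nfe2l2* and -0.037 to 0.074 for *Hmox1* in the difference. *Nfe2l2* between lines with PTH passed with library totals (0.19).

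Counts of list genes moved most where they were small. For NRF2 control genes they went from 1 to 0 (library totals, threshold 0.01) with PTH in WT cells, from 2 to 4 (2-group fit) or 1 (threshold 0.01) in Y428F cells and from 4 to 7 (library totals) between vehicle groups. For NRF2 targets they went from 8 to 5 (threshold 0.01) in WT and from 4 to 8 (2-group fit) in Y428F cells. Heme genes went from 1 to 2 in Y428F cells (DESeq2, other filters, block, 2-group fit). ATF3 partners went from 9 to 5 (threshold 0.01) in WT cells, from 6 to 10 (library totals) in Y428F cells, and from 1 to 2 (DESeq2, no filter) or 0 (threshold 0.01) in the difference. The causes were not tested. *Nqo1* and *Atf3* had the fewest counts of the 8 (40 to 200 a library) and the widest intervals, and the part of depth in these was not tested.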
